A study of Mus musculus with 24 samples.

Results

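Type I interferon response genes are the transcripts that cells switch on when the interferon receptor is engaged. A list of 31 such genes was followed through mouse lung and left ventricle. The array annotation paired 29 of them with a probe set of their own among 18193 genes, and where a gene had several probe sets the brightest one, averaged over the 24 arrays, stood for it. Isg15 and Ifi44 were not analysed here. Testing in a tissue required a log2 level above 4 on at least 3 of its 12 arrays, which 26 of the 29 reached in lung and 19 in left ventricle.

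RNA was hybridised to 24 Affymetrix arrays in 8 groups of 3 arrays. The CD-1 mice were 20 weeks old, labelled male, and of 2 genotypes. Wild-type mice served as controls, and dnCREB mice carry a dominant negative CREB1 under the cardiomyocyte-specific myosin heavy chain-alpha promoter, so lung cells themselves are not the target of the transgene. Each genotype received PBS or particulate matter (PM, 20 mg/kg of 1.9 µm particles), and the labels of all PM arrays, heart included, give 36 h as the time of lung harvest. The labels name 3 animals per group and do not say whether lung and heart of 1 replicate number came from the same mouse.

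Type I interferons bind the receptor pair Ifnar1 and Ifnar2, which activates the kinases Jak1 and Tyk2. The signal leads to a complex that holds Stat2 and Irf9 and binds interferon-stimulated response elements in promoters. The induced genes include the factor Irf7, which amplifies the response, sensors of viral RNA (Ifih1, Dhx58), effectors that block viral RNA or protein synthesis (the Ifit, Oas and Mx families, Eif2ak2, Rsad2), and the brake Usp18. Lung macrophages and epithelium respond to interferon, and so do heart muscle cells and fibroblasts.

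Several arrays went against their labels or stood apart. By Xist and Y-linked transcripts, the 3 wild-type PBS lungs carried Y-linked RNA, wild-type PM lungs 1 and 3 carried Xist and lung 2 Y-linked RNA, the dnCREB PM lungs all carried Xist, and dnCREB PBS lungs 1 and 3 carried neither at a level above 8. All 6 wild-type left ventricles carried Xist and 5 of 6 dnCREB left ventricles carried Y-linked RNA, so genotype in the heart nearly coincided with this class. Myh1, a skeletal muscle myosin, exceeded 10 in wild-type PM lungs 1 and 2, dnCREB PBS lungs 1 and 3 and dnCREB PM lung 3. Wild-type PBS lung 1 had the lowest mean of 6 endothelial markers (10.24, against 11.82 and 11.84 in its group) and wild-type PM lung 2 the highest means of macrophage and neutrophil markers of all lungs (10.29 and 10.73). The transgene was visible in the heart: the Creb1 probe set 1421582_a_at, chosen after its values were seen, lay between 2.51 and 3.29 in the 6 wild-type left ventricles and between 9.05 and 12.0 in the 6 dnCREB ones. Surfactant and other epithelial markers were present in lung, cardiomyocyte markers averaged 15.48 to 15.91 in every left ventricle, and 5 of 7 lung epithelial markers stayed under 4 there.

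In wild-type lung, 4 of the 26 members tested rose with PM and none fell (limma, adjusted p under 0.05). The 4 were Irf7, the amplifying transcription factor, the antiviral Ifit1 and Oasl2, and Rtp4, an interferon-induced receptor transporter. Across all genes 2.39% passed in either direction, 1.96% as higher and 0.431% as lower. At an unadjusted p under 0.05 there were 16 members, against 26.3% of all genes. All 26 members had a higher mean with PM, with a median difference of 0.92 log2 units against 0.11 over all 11600 genes. This holds for the brightest probe sets. Of 15 further member probe sets above the filter, 11 had the same sign as the brightest one of their gene. For 15 of the 26 the 3 PM lungs all lay above the 3 PBS lungs, an arrangement seen for 17.4% of all genes, and for none did they all lie below (9.09% of all genes).

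Irf7 (1417244_a_at) stood at log2 levels of 5.57, 5.32 and 5.58 in the wild-type PBS lungs and 7.48, 8.56 and 8.0 in the PM lungs. The groups did not overlap, and the difference was 2.53 ± 0.43 log2 units (SE, 5.76-fold, adjusted p = 0.021 by limma). Rtp4 (1418580_at) read 8.84, 8.76 and 8.57 with PBS and 9.91, 10.93 and 10.59 with PM. Every PM lung again exceeded every PBS lung, by 1.75 ± 0.34 log2 units (SE, 3.36-fold, adjusted p = 0.028).

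Ifit1 (1450783_at), which binds RNA that lacks the marks of a host cap, measured 7.35, 7.02 and 6.64 with PBS and 8.28, 9.44 and 9.50 with PM. It rose by 2.07 ± 0.47 log2 units (SE, 4.2-fold, adjusted p = 0.047). Oasl2 (1453196_a_at), a relative of the oligoadenylate synthetases, measured 7.04, 8.05 and 8.25 against 9.08, 10.8 and 9.91 with PM, a rise of 2.15 ± 0.50 log2 units (SE, 4.44-fold, adjusted p = 0.049). In all 4 genes the groups were separate, and the lowest PM value was that of replicate 1.

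**Figure D1:**
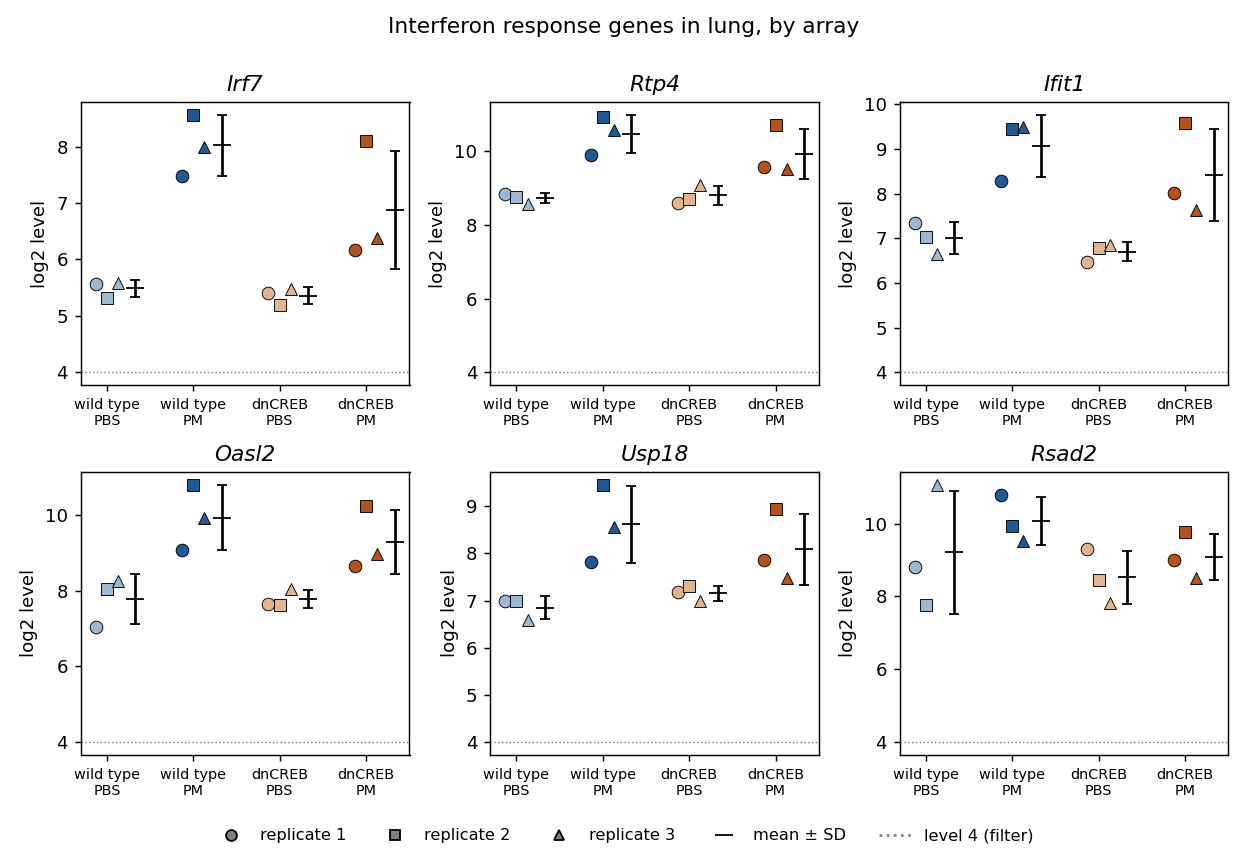
Log2 levels of 6 interferon response genes on the 12 lung arrays, by group (3 arrays each, marker shape for the replicate number, bars for mean ± SD). Irf7, Rtp4, Ifit1, Oasl2 and Usp18 show every PM lung above every PBS lung in both genotypes, and Rsad2 is highest in wild-type PBS lung 3 (11.07).

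The other members are given by role, as differences in log2 units between PM and PBS lungs. Among the transcription factors, Irf9 differed by 0.96 (adjusted p = 0.077), Irf1 by 0.33 (adjusted p = 0.36) and Stat2 by 0.02 (adjusted p = 0.98). Among RNA sensors, Dhx58 differed by 2.06 ± 0.58 (SE, adjusted p = 0.073), with 4.46, 4.53 and 5.16 in PBS lungs and 5.54, 7.88 and 6.90 in PM lungs, while Ifih1 differed by 0.21. Zbp1, a sensor of Z-form nucleic acid, differed by 2.01 (adjusted p = 0.059), and the brake Usp18 by 1.76 (adjusted p = 0.052).

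The Ifit and Oas families were uneven. Ifit2 and Ifit3 are next to each other on chromosome 19, and Ifit3 differed by 1.08 (adjusted p = 0.075) and Ifit2 by 0.28 (adjusted p = 0.54). Ifit3 and Oas1a have near-identical relatives in the mouse (Ifit3b, Oas1g), so their signal can include those transcripts. Oas1a differed by 2.15 (adjusted p = 0.057) and Oas2 by 1.54 (adjusted p = 0.1). Oas3 and Mx2 stayed under 4 on all 12 lung arrays, and Oasl1 exceeded 4 only in wild-type PM lung 2 (5.17).

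Rsad2, the antiviral enzyme viperin, did not separate the groups. It measured 8.80, 7.77 and 11.07 in wild-type PBS lungs and 10.8, 9.94 and 9.51 in PM lungs, and the high PBS lung 3 was the highest of its group on all 3 Rsad2 probe sets. Its neighbour Cmpk2, a nucleotide kinase induced with it by interferon, measured 7.87 in that same lung and differed by 1.03 between PM and PBS (adjusted p = 0.17). The members Ifi27l2a (2.03), Xaf1 (0.86), Bst2 (0.78) and Parp14 (0.70) had separate groups without passing the test. Ifi35 (0.37), Eif2ak2 (0.26), Herc6 (0.17), Trim25 (0.16) and Mx1 (0.10) had overlapping groups.

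The count of 4 rested on single arrays, and the share of all genes passing (2.39% in the main fit) moved too. It was 0 without wild-type PM lung 2 (0.431% of all genes) or without wild-type PBS lung 2 (0.328%). The count was 1 without PBS lung 3 (2.93%) or PM lung 3 (1.67%), and 2 without PBS lung 1 (1.31%). It was 11 without PM lung 1, where 5.39% of all genes passed. Without any 1 of the dnCREB PBS lungs (1.25% to 1.31%) or dnCREB PM lung 1 (1.84%) it was 2. In exclusions chosen after seeing the data, it was also 0 without the 5 lungs high in Myh1 (0.0345%). It was 0 as well without wild-type PBS lung 1 and PM lung 2 together, the arrays that stood apart (0.371%). Adding the class given by Xist and Y-linked RNA as a covariate gave 16 members, in a fit that called 17.9% of all genes. In wild-type lung that fit separates PM from class only through PM lung 2, the PM lung with Y-linked RNA like the PBS lungs. Its median member difference was 1.37, as in PM lung 2 alone, so the count of 16 rests on that lung.

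Comparisons of arrays of 1 class, or on 1 side of a Myh1 level of 10, were also made. Each has a single lung on at least 1 side, so the members counted are readings of that lung and not repeats. The split by Myh1 was chosen after seeing the data. The part of class or muscle RNA in the PM differences was not tested. Wild-type PM lung 2, the PM lung of that group with Y-linked RNA, exceeded all 3 PBS lungs in 21 of 26 members (45.1% of all genes). PM lung 3, the wild-type PM lung with Myh1 not above 10 but at 7, against 2.65 to 2.79 in the PBS lungs, also exceeded all 3 PBS lungs in 21 of 26 (34.5% of all genes). The exceptions were Stat2, Mx1 and Rsad2 in both, with Eif2ak2 and Herc6 in the first and Irf1 and Ifi35 in the second. In dnCREB lung all PM arrays exceeded PBS lung 2, which also carried Xist, in 21 of 26 (34.1% of all genes). The dnCREB PM lungs 1 and 2, low in Myh1, exceeded PBS lung 2 in 22 of 26 (45.6% of all genes). The dnCREB PM lung 3, high in Myh1, exceeded PBS lungs 1 and 3 in 19 of 26 (45.1% of all genes). In the same order, 0, 0, 1, 1 and 3 members lay below, as did 26.9%, 21.3%, 23.4%, 27.4% and 34.7% of all genes.

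In dnCREB lung 0 of 26 members passed the test (limma), and 1 gene of 11600 did (0.00862%). At an unadjusted p under 0.05 there were 11 members, against 9.72% of all genes. The median difference between PM and PBS was 0.69 log2 units (all genes 0.07), 25 of 26 members were higher in the mean, and 15 had all PM lungs above all PBS lungs (20.8% of all genes). Of these 15, 11 were among the 15 separated in wild-type lung (73.3% of each): Dhx58, Ifit1, Irf7, Irf9, Oas1a, Oas2, Oasl2, Parp14, Rtp4, Usp18 and Zbp1.

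Irf7 measured 5.40, 5.19 and 5.48 in dnCREB PBS lungs and 6.17, 8.09 and 6.38 with PM, a difference of 1.52 ± 0.43 (SE, adjusted p = 0.32). Ifit1 measured 6.47, 6.79 and 6.85 against 8.01, 9.58 and 7.63 (1.70 ± 0.47, adjusted p = 0.31). In both genes PM lung 2 was far above the other PM lungs, yet those also lay above all PBS lungs. Oas1a measured 5.07, 4.97 and 6.04 against 6.72, 8.19 and 7.02 (1.95 ± 0.53, adjusted p = 0.31). Rtp4 measured 8.60, 8.72 and 9.10 against 9.57, 10.72 and 9.51 (1.12 ± 0.34, adjusted p = 0.33).

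Stat2, the partner of Irf9 in the interferon-activated complex, was the member with a lower mean. Its levels were 6.75, 6.81 and 7.18 with PBS and 5.20, 6.06 and 6.43 with PM (-1.02 ± 0.35, SE, adjusted p = 0.37), with no overlap, as for 8.25% of all genes. A further Stat2 probe set, at means of 3.76 and 3.95, differed by 0.18. Of 15 further member probe sets above the filter, 9 had the same sign in dnCREB lung as the brightest one of their gene. Array weights, which let each array's own spread count, moved the number called in dnCREB lung from 0 to 18 (17 higher and 1 lower), and the share of all genes called to 15.3%.

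**Figure D2:**
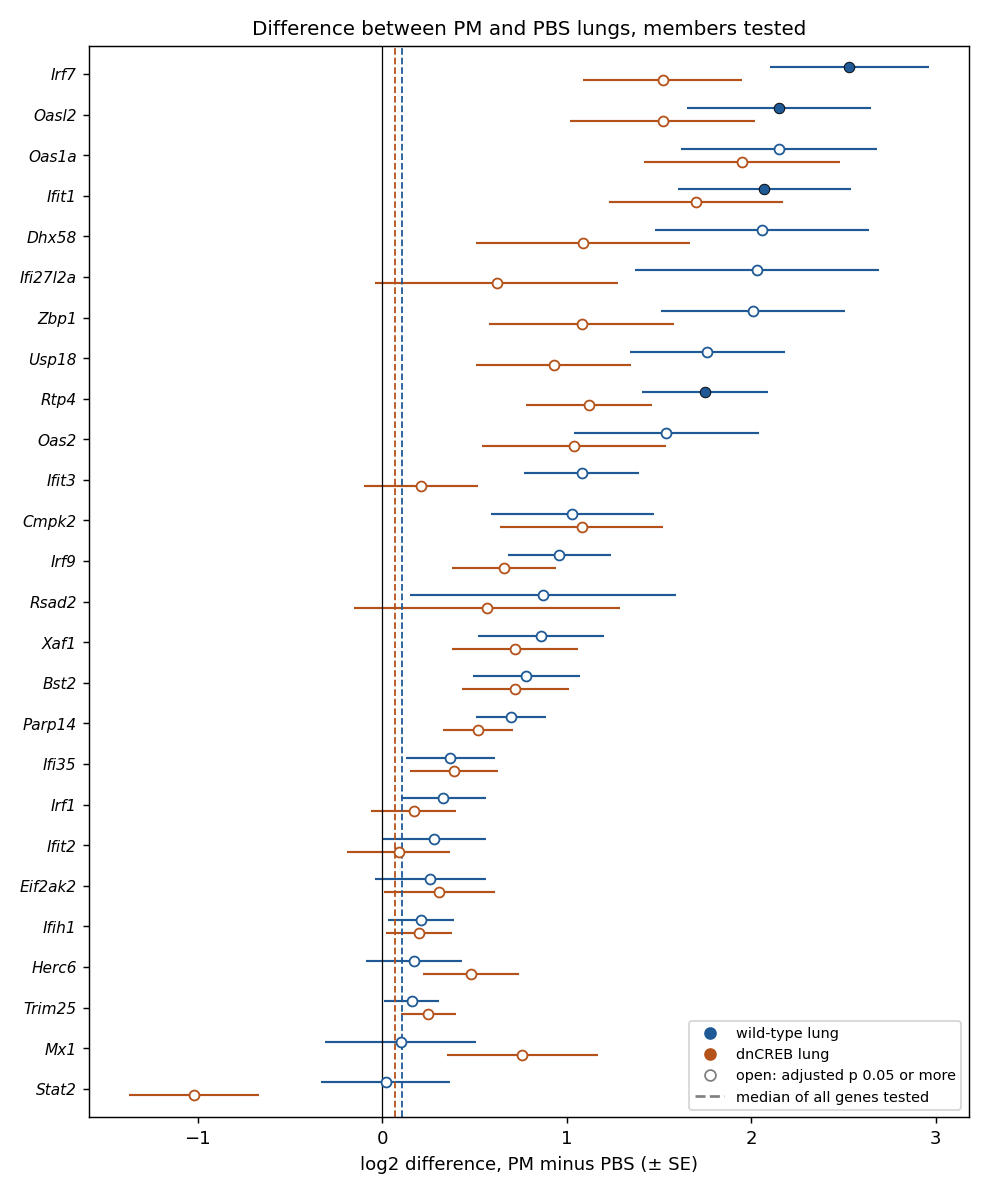
Differences between PM and PBS lungs for the 26 members tested, in wild type and dnCREB (log2 units ± SE, filled where the adjusted p was under 0.05, dashed lines at the medians of all genes, 0.11 and 0.07). The filled points are Irf7, Oasl2, Ifit1 and Rtp4 in wild type, and Stat2 in dnCREB is the point furthest below 0 (-1.02).

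The response to PM was compared between the genotypes as the dnCREB difference minus the wild-type difference. No member passed (0 of 26, limma, with 0.00862% of all genes passing), and 0 members had an unadjusted p under 0.05, against 5.22% of all genes. The median of this difference was -0.24 (all genes -0.03), and it was positive in 6 of 26 members. The smallest p belonged to Stat2 (-1.04 ± 0.50), Ifit3 (-0.88 ± 0.43), Irf7 (-1.0 ± 0.61) and Ifi27l2a (-1.41 ± 0.94), each with an adjusted p of 0.83, and Ifit1 gave -0.37 ± 0.66 (adjusted p = 0.9). A difference between the genotypes in the lung response was therefore not shown.

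In each PM group a single lung was the highest for most members. Wild-type PM lung 2 was the highest of its group in 19 of 26 members and of all 12 lungs in 16. In dnCREB lungs, PM lung 2 was the highest of its group in 22 of 26. The median member stood 0.40, 1.37 and 0.90 log2 units above the wild-type PBS mean in the wild-type PM lungs, and 0.39, 1.23 and 0.49 above it in the dnCREB PM lungs. The PBS lungs of both genotypes lay between -0.10 and 0.10. The median SD over members was 0.56 and 0.57 in the PM groups and 0.28 and 0.22 in the PBS groups, while over all genes it was 0.30 and 0.19 with PM and 0.32 and 0.14 with PBS.

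**Figure D3:**
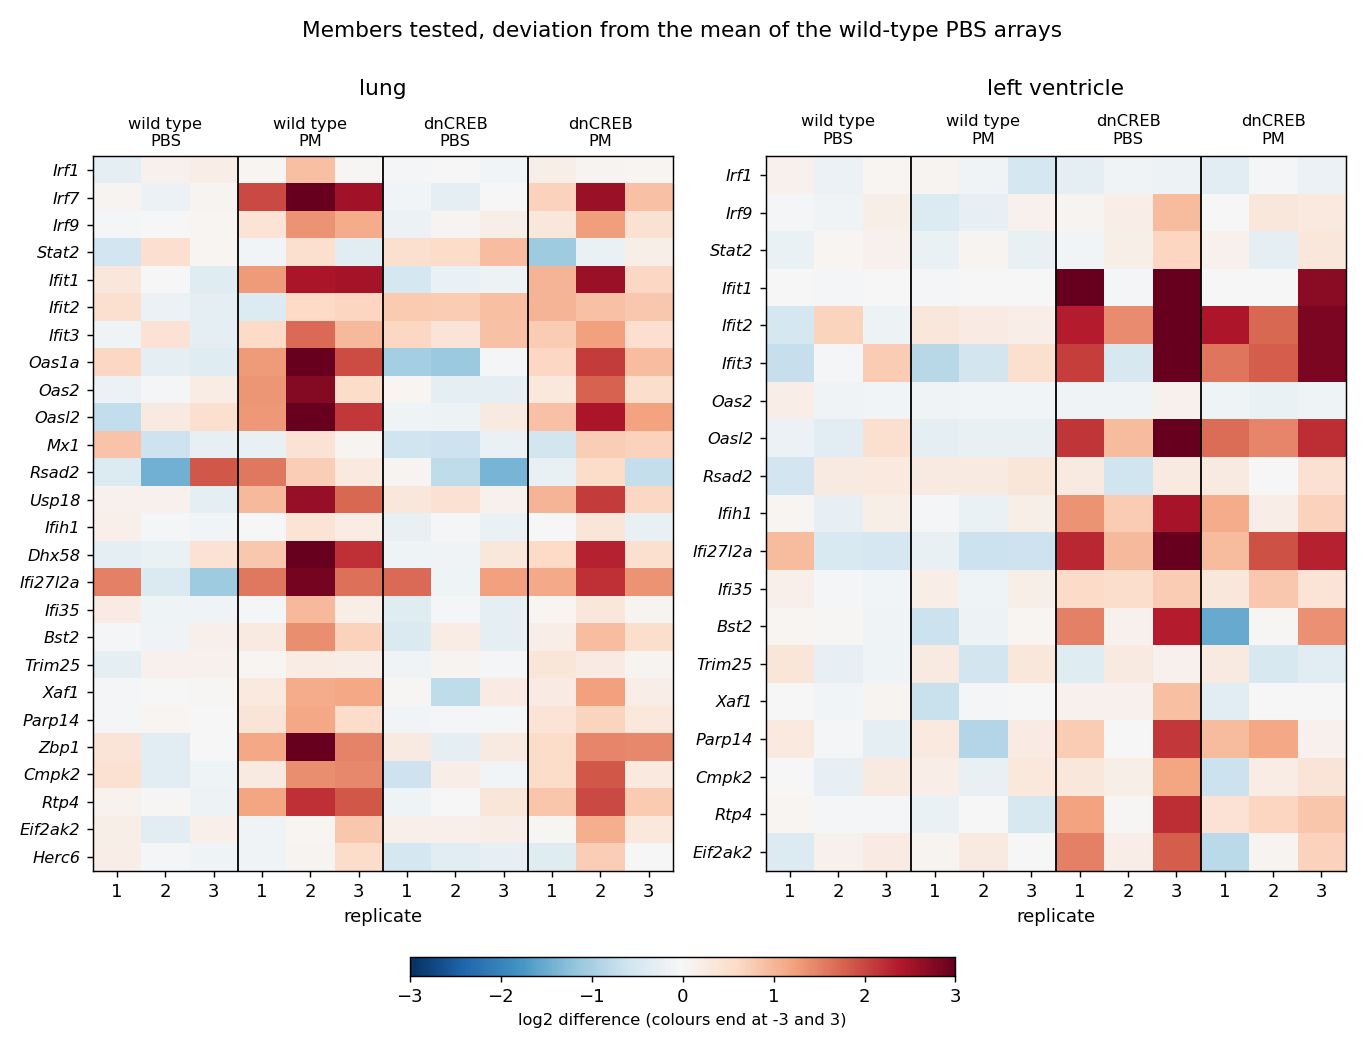
Deviation of each member tested from the mean of the wild-type PBS arrays of its tissue (log2 units, red higher, blue lower), for the 12 lungs and the 12 left ventricles with replicate numbers below. Wild-type and dnCREB PM lung 2 and dnCREB PBS left ventricle 3 carry the strongest red, and PM left ventricles of wild type stay near 0.

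The genes upstream of these members were also counted. For this and the further lung lists, 1.96% of all genes passed as higher in wild-type lung and 0.00862% in dnCREB lung. Transcripts of Ifnb1, Ifna2 and Ifna4, the interferons themselves, stayed under 4 on all 24 arrays (highest 3.26). Of 17 tested genes for receptors, kinases, factors and sensors, 1 rose in wild-type lung, Irf5 (1.44 ± 0.29, SE, adjusted p = 0.032), a factor of myeloid cells, and 0 in dnCREB lung. The list's median was 0.46 in wild-type and 0.18 in dnCREB lung. Of 11 tested genes listed under restraint of the response, Nlrc5 rose in wild-type lung (1.46 ± 0.28, adjusted p = 0.028) and 0 passed in dnCREB lung. Socs1, of the same list, was under 4 on all lungs. Whether any of them restrained the response here was not tested.

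Genes known for induction by interferon gamma form a related group. Of 9 tested, 6 rose in wild-type lung, with a list median of 1.36. They were the immunity-related GTPases Iigp1 (1.82), Igtp (1.71), Irgm2 (1.52) and Irgm1 (1.36) and the guanylate-binding proteins Gbp3 (1.39) and Gbp2 (0.79). Their adjusted p ran from 0.016 for Irgm2 to 0.049 for Gbp2. In dnCREB lung 0 of 9 passed, and the median was 0.85. Ifng itself was under 4 on every lung array. Among 33 other interferon-induced genes 5 rose in wild-type lung: Slfn8 (1.86), Slfn2 (1.51), Ifi47 (1.46), Dtx3l (0.81) and Ifi204, which rose at least 2.71-fold because all its PBS lungs lay under 4. None of the 33 passed in dnCREB lung (median 0.30).

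Leukocyte markers were set beside these genes, and whether they vary together across arrays was not tested. The mean of 13 macrophage and monocyte markers ran from 8.16 to 8.70 in wild-type PBS lungs and from 9.62 to 10.29 in PM lungs, and from 8.53 to 8.67 and 8.97 to 9.67 in dnCREB lungs. Of the 13, C1qb (2.38), C1qc (2.65) and Marco passed in wild-type lung, Marco at least 3.95-fold higher, and 0 passed in dnCREB lung. The mean of 7 neutrophil markers ran from 6.87 to 8.74 with PBS and from 8.25 to 10.73 with PM in wild-type lung, and from 7.52 to 7.81 and 7.85 to 8.86 in dnCREB lung, with 0 of 7 passing in either. Of 8 lymphocyte markers tested, Nkg7, of cytotoxic cells, rose in wild-type lung by 2.09 (adjusted p = 0.0071), and 0 passed in dnCREB lung. The 6 skeletal muscle markers tested had a median difference of 5.56 in wild-type and -2.45 in dnCREB lung, with 0 passing in either. No defining macrophage or neutrophil marker was under 4 on all lungs, whereas Siglech, which defines plasmacytoid dendritic cells, was under 4 on all 24 arrays. Siglech is 1 of 6 matched markers of these cells. In lung 4 of the 6 were tested, the member Bst2 included, with a median difference of 0.43 in each genotype and 0 passing. The part of these cells in the member values was not tested. In whole tissue, more cells of a type and more RNA per cell cannot be told apart.

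In left ventricle the members were compared between genotypes. Under PBS all wild-type hearts carried Xist and all dnCREB hearts Y-linked RNA, so genotype and this class cannot be told apart there. Under PBS, 5 of 19 members tested were higher in dnCREB than in wild-type hearts and none was lower. They were Ifit2 and Oasl2, both antiviral effectors, Ifi27l2a, a small interferon-induced membrane protein, the RNA sensor Ifih1, and Ifi35. Over all 9962 genes 18.8% passed in either direction, 13.2% as higher and 5.6% as lower, and the count of 5 (26.3% of the members tested) has to be read against these shares. At an unadjusted p under 0.05 there were 8 members, against 33.1% of all genes, and 1 of the 8 was Ifit1, which exceeded the filter level in dnCREB hearts alone. For 7 of the 19 all dnCREB hearts lay above all wild-type hearts, as for 25.8% of all genes, and for none did they all lie below (16.9% of all genes). The median member differed by 0.97 log2 units (all genes 0.09), and under quantile normalization, which moved the median of all genes to -0.04, by 0.80.

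Ifit2 (1418293_at) measured 6.77, 7.95 and 7.14 in wild-type PBS hearts and 9.64, 8.70 and 10.67 in dnCREB ones. The difference was 2.38 ± 0.47 log2 units (SE, 5.22-fold, adjusted p = 0.0065 by limma). Oasl2 measured 6.21, 6.08 and 6.88 against 8.53, 7.34 and 9.6 (2.10 ± 0.46, 4.29-fold, adjusted p = 0.011). Both genes kept every dnCREB heart above every wild-type heart, with dnCREB heart 2 the lowest and heart 3 the highest of its group.

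Ifih1 (1426276_at) measured 6.27, 5.98 and 6.40 against 7.56, 6.98 and 8.69 (1.53 ± 0.38, SE, 2.88-fold, adjusted p = 0.018). Ifi27l2a (1426278_at), abundant in heart, measured 11.3, 9.90 and 9.85 against 12.6, 11.32 and 13.33 (2.07 ± 0.55, 4.19-fold, adjusted p = 0.025). Ifi35 (1445897_s_at) measured 11.45, 11.23 and 11.21 against 11.88, 11.83 and 12.06 (0.63 ± 0.15, 1.54-fold, adjusted p = 0.017). In Ifi27l2a, dnCREB heart 2 lay just above wild-type heart 1, and Ifi35 had the tightest groups of the 5. The other 2 Ifi35 probe sets differed by 0.75 and 1.11.

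**Figure D4:**
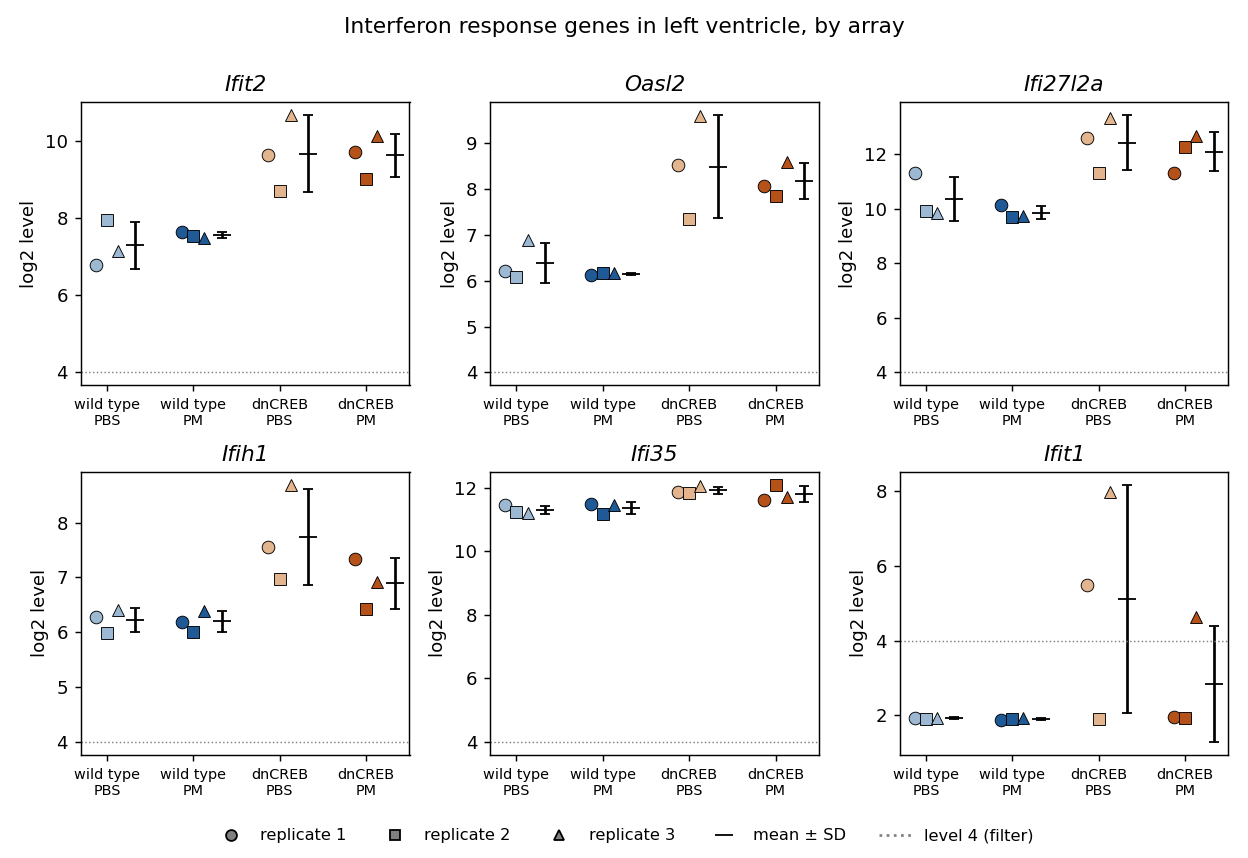
Log2 levels of 6 members on the 12 left ventricle arrays by group (3 arrays each, marker shape for the replicate number, bars for mean ± SD, dotted line at the filter level of 4). Ifit2, Oasl2 and Ifi27l2a are higher in all 6 dnCREB hearts than in the wild-type hearts of the same treatment, and Ifit1 leaves its floor near 1.9 in 3 dnCREB hearts alone.

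Other members were high in some dnCREB hearts and at wild-type level in others. Ifit1 measured 1.93, 1.89 and 1.92 in wild-type PBS hearts and 5.49, 1.89 and 7.98 in dnCREB ones, a fitted difference of 3.21 ± 1.24 (SE, adjusted p = 0.099). It passed the filter on low values through 3 dnCREB hearts alone, so its place among the tested members came from the group in which it was high. Ifit3 measured 5.68, 6.30 and 7.13 against 8.45, 5.88 and 10.01 (1.74 ± 0.87, adjusted p = 0.19). In both, dnCREB heart 2 lay within the wild-type values.

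Irf7 lay between 1.29 and 1.34 in wild-type hearts and exceeded 4 in dnCREB PBS heart 3 alone (5.47), so it was not tested. Oas1a (5.78), Usp18 (5.12) and Herc6 (4.10) likewise exceeded 4 in that heart alone. Mx1, Mx2, Oas3, Oasl1, Dhx58 and Zbp1 were under 4 on all 12 hearts. Heart 3 of the dnCREB PBS group was the highest of all 12 hearts in 14 of the 19 members tested. The median member stood 0.78, 0.17 and 1.83 log2 units above the wild-type PBS mean in dnCREB PBS hearts 1, 2 and 3.

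By role, the factors of the interferon complex differed little: Irf9 by 0.41 (adjusted p = 0.22), Stat2 by 0.24 (adjusted p = 0.45) and Irf1 by -0.19 (adjusted p = 0.45). Eif2ak2, the kinase that shuts down translation, differed by 1.19 (adjusted p = 0.087), Rtp4 by 1.15 (adjusted p = 0.084), Bst2, which tethers viruses to the cell surface, by 1.34 (adjusted p = 0.19) and Parp14 by 0.97 (adjusted p = 0.21). Cmpk2 (0.57), Xaf1 (0.38), Trim25 (0.01), Rsad2 (-0.02) and Oas2 (-0.02) also missed the threshold. Oas2 read 7.65 to 8.04 on every heart, with an SD of 0.01 in wild-type PM hearts. Whether that level is background signal was not tested. Further Rsad2 probe sets did not pass the filter in heart. A further Eif2ak2 probe set above the filter, 1422006_at, differed by only 0.12, and by -0.31 under PM. The further Xaf1 probe set differed by -1.10, and by 1.13 under PM. Of 7 further member probe sets above the filter, 4 had the sign of the brightest one under PBS and 7 under PM.

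The called count under PBS moved with single arrays. It was 2 without wild-type PBS heart 2, 3 without wild-type PBS heart 3 or dnCREB PBS heart 3, and 9 without dnCREB PBS heart 2, where 16.8% of all genes passed. With the class of Xist or Y-linked RNA as a covariate it was 0 (3.38% of all genes), and the median member difference was then 1.17. That fit separates genotype from class only through dnCREB PM heart 3, since under PBS genotype and class cannot be told apart.

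Under PM, 3 of 19 members were higher in dnCREB hearts: Ifit2, Oasl2 and Ifi27l2a, all among the 5 called under PBS. No member was lower. Over all genes 20.5% passed, 11.4% as higher and 9.13% as lower, against 15.8% of the members. At an unadjusted p under 0.05 there were 5 members, against 34% of all genes. The median member differed by 0.39 (all genes 0.02). Of the 7 members with all dnCREB hearts above all wild-type hearts (20.2% of all genes), 5 were among the 7 so separated under PBS: Ifi27l2a, Ifi35, Ifih1, Ifit2 and Oasl2. The heart comparisons under PBS and under PM share no arrays.

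Ifit2 measured 7.64, 7.54 and 7.49 in wild-type PM hearts and 9.72, 9.01 and 10.12 in dnCREB ones (2.06 ± 0.47, SE, 4.17-fold, adjusted p = 0.013 by limma). Oasl2 measured 6.13, 6.16 and 6.16 against 8.07, 7.85 and 8.60 (2.02 ± 0.46, 4.06-fold, adjusted p = 0.013). Ifi27l2a measured 10.12, 9.70 and 9.74 against 11.29, 12.26 and 12.67 (2.22 ± 0.55, 4.66-fold, adjusted p = 0.017). In these genes the 3 dnCREB hearts spread less than under PBS and the groups did not overlap.

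Ifit3, Ifi35, Rtp4 and Ifih1 also had separate groups under PM but missed the threshold, at 2.38 (adjusted p = 0.079), 0.43 (adjusted p = 0.069), 0.87 (adjusted p = 0.17) and 0.70 (adjusted p = 0.22). Ifit1 measured 1.94, 1.92 and 4.62 in dnCREB PM hearts (0.92 ± 1.24, adjusted p = 0.64), and Irf7 was under 2 in all 3. Oas2 had every dnCREB heart below every wild-type heart, by 0.05 (adjusted p = 0.81), as had 16.2% of all genes. Heart 3 of the dnCREB PM group carried Xist like the wild-type hearts. It exceeded all 3 wild-type PM hearts in 14 of 19 members (30.9% of all genes). In 1 member it lay below all 3 (39.8% of all genes). The 14 include Ifit1, which passed the filter through dnCREB hearts alone, this heart among them. The members counted here are readings of 1 heart and not repeats. The dnCREB PM hearts 1 and 2 both exceeded the wild-type PM hearts in 8 members (26.1% of all genes) and lay below them in 2 (17.4%). Leaving out dnCREB PBS heart 2 or 3, which share only the spread estimate with this comparison, gave 5 called members in place of 3 (19.2% and 21.1% of all genes).

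**Figure D5:**
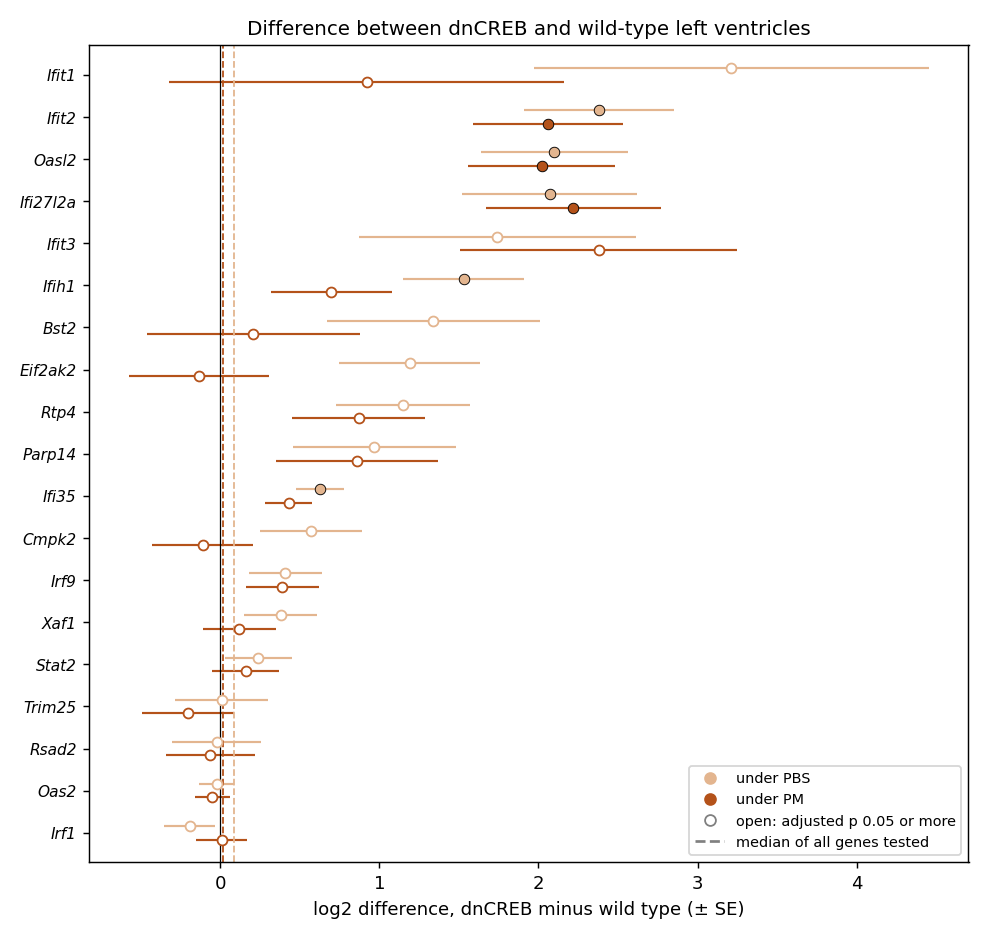
Differences between dnCREB and wild-type left ventricles for the 19 members tested, under PBS and under PM (log2 units ± SE, filled where the adjusted p was under 0.05, dashed lines at the medians of all genes, 0.09 and 0.02). Ifit2, Oasl2 and Ifi27l2a lie near 2 in both treatments, and Ifit1 has the widest error.

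The promoters of the members were searched for the sequence to which the interferon-activated complex binds. RefSeq promoters (GRCm38.p6, from 250 bases before to 50 after each start) were matched for 22 of the 31 members. The core of the interferon-stimulated response element, GAAA, any 2 bases and GAAA again, searched on either strand, was found in 10 of them (45.5%) and in 3.99% of all 27025 genes with a promoter. The gamma-activated sequence TTCNNNGAA, which reads the same on both strands, was found in 6 members (27.3%) and in 9.55% of all. The members were assembled as interferon targets, so these shares describe the list and were not tested. The 12 members in which the first motif was not found include Ifit2, Oasl2 and Ifi35, which were called in the heart, and Irf7.

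Of the 10, the 5 with the smallest p for dnCREB against wild-type hearts under PBS are shown, since they let the motif be set beside the heart values. Ifit1 is among them although it passed the filter through dnCREB hearts alone, so its place by p is no support for a heart difference. Capitals mark each match to this core, which on the opposite strand reads TTTC, 2 bases, TTTC. For Ifit1 (chr19:34640639-34640888, plus strand), Ifit3 (chr19:34583279-34583528, plus strand) and Bst2 (chr8:71537473-71537722, minus strand) the 250 bases before the start are given. For Ifih1 (chr2:62646206-62646235, minus strand) and Eif2ak2 (chr17:78882535-78882564, minus strand) the match lies after the start, and 30 bases around it are given.
Ifih1: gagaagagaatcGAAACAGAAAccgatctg
Eif2ak2: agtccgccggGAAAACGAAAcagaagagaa
Ifit1: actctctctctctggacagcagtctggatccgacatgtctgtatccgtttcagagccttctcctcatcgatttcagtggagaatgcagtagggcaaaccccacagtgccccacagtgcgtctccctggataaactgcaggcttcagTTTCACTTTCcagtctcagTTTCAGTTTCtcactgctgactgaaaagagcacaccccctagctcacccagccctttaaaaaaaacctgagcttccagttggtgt
Ifit3: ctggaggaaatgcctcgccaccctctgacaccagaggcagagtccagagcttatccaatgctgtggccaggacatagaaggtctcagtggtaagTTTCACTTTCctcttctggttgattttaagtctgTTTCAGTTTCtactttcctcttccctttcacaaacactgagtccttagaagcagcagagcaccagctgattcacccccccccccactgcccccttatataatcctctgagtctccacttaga
Bst2: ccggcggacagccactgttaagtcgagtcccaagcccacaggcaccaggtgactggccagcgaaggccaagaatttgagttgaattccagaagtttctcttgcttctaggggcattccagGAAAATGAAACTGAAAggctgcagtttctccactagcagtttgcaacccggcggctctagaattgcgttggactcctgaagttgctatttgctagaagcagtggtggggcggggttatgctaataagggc
Ifit1 and Ifit3 hold the same pair of matches, TTTCACTTTC and TTTCAGTTTC, beginning 104 and 85 bases before the start in Ifit1 and 156 and 122 before it in Ifit3. In Bst2 the 2 matches, which begin 130 and 124 bases before the start, overlap each other, and a match to TTCNNNGAA overlaps the first of them. Of these 5 genes only Ifih1 was called in the heart under PBS, and none under PM. In Ifit1, Ifit3, Bst2 and Eif2ak2, dnCREB PBS heart 2 stayed near wild type (1.89, 5.88, 4.94 and 6.95) while hearts 1 and 3 were higher. For Eif2ak2 this holds for the brightest probe set. On 1422006_at the dnCREB PBS hearts read 6.93, 6.76 and 6.89, against 6.73, 6.71 and 6.79 in wild type.

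No member passed the test for PM in the heart. In wild-type hearts 0 of 19 passed (limma, 0.01% of all genes), 0 had an unadjusted p under 0.05 (1.47% of all genes), and the median difference was -0.10 (all genes 0.04). No member had separate groups, against 3.46% of all genes with PM hearts higher and 1.98% with PM hearts lower. The smallest p belonged to Irf1 (-0.18 ± 0.16), Rsad2 (0.31 ± 0.28), Xaf1 (-0.23 ± 0.23) and Ifi27l2a (-0.50 ± 0.55), all with an adjusted p of 1. Ifit1 and Irf7 were under 4 on all 6 wild-type hearts.

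In dnCREB hearts 0 of 19 passed (0% of all genes), 2 had an unadjusted p under 0.05 (4.92% of all genes), and 16 of 19 means were lower with PM. No member had all PM hearts above all PBS hearts (2.51% of all genes), and Oas2 and Xaf1 had them all below (4.97% of all genes). Eif2ak2 measured 8.26, 6.95 and 8.56 with PBS and 5.93, 6.82 and 7.43 with PM (-1.20 ± 0.44, SE, adjusted p = 0.97 by limma), with 1 PBS heart among the PM values. Ifih1 (-0.85 ± 0.38), Xaf1 (-0.49 ± 0.23) and Bst2 (-1.38 ± 0.67) also had an adjusted p of 0.97, as had Ifit1 (-2.30 ± 1.24). These differences share the dnCREB PBS hearts with the comparison of genotypes under PBS, heart 3 included. On the further Eif2ak2 probe set 1422006_at the PBS and PM means were 6.86 and 6.46.

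The heart response to PM was not shown to differ between genotypes. None of 19 members passed (0% of all genes), and 0 had an unadjusted p under 0.05 (3.62% of all genes). The smallest p belonged to Eif2ak2 (-1.32 ± 0.62), Ifih1 (-0.83 ± 0.53), Cmpk2 (-0.67 ± 0.45) and Ifit1 (-2.28 ± 1.75), each with an adjusted p of 0.98 by limma.

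Other interferon genes in the heart showed a mixed picture. Over all genes 13.2% passed as higher and 5.6% as lower in dnCREB hearts under PBS, and 11.4% and 9.13% under PM. Genotype nearly coincided with the class of Xist or Y-linked RNA here too. Of 28 further interferon-induced genes 7 were higher in dnCREB hearts under PBS, among them Trim34a (1.82), Parp9 (1.21), Uba7 (1.08), Lgals3bp (1.01), Tdrd7 (0.82) and the antiviral membrane protein Ifitm3 (0.55), and none was lower (median 0.58). Under PM 7 of 28 were higher, among them Lgals3bp (1.41), Ly6e (1.30), Znfx1 (1.14), Ifitm3 (0.80), Ifitm2 (0.78) and Parp9 (0.74), again with none lower (median 0.74). Of 8 genes induced by interferon gamma, 0 were higher and Gbp6 was lower under both treatments (-1.82 with PBS, adjusted p = 0.0058, and -1.78 with PM, adjusted p = 0.0065).

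Of 13 signalling genes 0 passed under PBS, while Irf8, a factor of myeloid cells (2.00, adjusted p = 0.0082), Irf2 (0.60, adjusted p = 0.015) and the receptor subunit Ifnar2 (0.45, adjusted p = 0.032) were higher under PM. Of 9 genes listed under restraint, Trim30a was higher under both (1.65 and 1.51), Pias1 lower under PBS (-0.61) and Ptpn11 higher under PM (0.62). The counts by genotype stand beside 18.8% of all genes called under PBS and 20.5% under PM. PM against PBS gave 0 calls in the hearts of either genotype in all 4 of these lists.

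Markers of other cells differed with genotype too, which nearly coincided with the class of Xist or Y-linked RNA. Over all genes 13.2% passed as higher in dnCREB hearts under PBS and 11.4% under PM. The mean of 13 macrophage and monocyte markers ran from 7.35 to 8.59 in wild-type and 8.17 to 8.89 in dnCREB hearts under PBS, and from 6.93 to 7.61 and 8.63 to 8.92 under PM. Of 10 tested, 1 passed under PBS (Csf1r, 1.03) and 8 under PM, with medians of 0.93 and 1.82. The macrophage markers Itgam and Marco were under 4 on all hearts. The 6 plasmacytoid dendritic cell markers, Bst2 included, had means of 5.14 to 5.25 in wild-type and 5.81 to 5.98 in dnCREB hearts under PBS. Under PM their means were 5.11 to 5.27 and 5.25 to 5.85. Of 6 fibroblast markers 5 were higher in dnCREB hearts under each treatment, among them Postn by 5.49 and 4.52. The means of 8 cardiomyocyte markers lay between 15.48 and 15.86 in wild-type and between 15.72 and 15.91 in dnCREB hearts. The part of these cells in the member values was not tested. Median member differences beside these were 0.97 under PBS and 0.39 under PM.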

How the data were processed

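Log2 levels per probe set were deposited by the authors, made with GCRMA per the submitters' processing notes (version not given). GCRMA corrects background by probe sequence and normalizes arrays together, and the lowest values (0.52 to 0.56 in lung, -0.22 to -0.20 in heart) differ by tissue, so the tissues were analysed apart. Arrays give no counts, and 3 arrays per group limit the precision. Of 45037 probe sets, 34945 carried 1 gene, 932 several and 9160 none, and only the first were used. No 2 arrays were identical (0 pairs).

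Each tissue was fitted in limma 3.58.1 under R 4.3.3, with a mean for each of the 4 groups and p-values adjusted by Benjamini-Hochberg across every gene tested (threshold 0.05). A fold against a group with all arrays under 4 is a bound taken against 4. The fit was tested on simulated data. Tables and plots used Python 3.11.15, pandas 2.3.3 and matplotlib 3.10.9. Each p-value sets a difference against the spread between arrays, shared over the 4 groups of the tissue. Within some groups the arrays also differ in the class of Xist or Y-linked RNA and, in lung, in muscle RNA.

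The members and lists were chosen with earlier results of these data known. Named members are those called, up to 10 per comparison by smallest p, or the 4 smallest p where fewer than 4 were called, with Irf7, Isg15 and Ifit1 throughout; further members are given to account for the list. From the other lists up to 6 called genes per comparison are named. Isg15 is not reported, since its probe set is shared with another gene. Promoters came from RefSeq (GRCm38.p6). Genome build and annotation of the deposited values are not given in the sources used here. Alternatives were another filter, normalization, probe set, variance model, set of arrays, covariate or block, and leaving out each array.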

Additional observations from a re-analysis of the deposited data

Results flagged for a closer look

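Oas2, an oligoadenylate synthetase, stood out because its arrays separated in opposite directions with PM in the lungs and hearts of dnCREB mice. In dnCREB lung all 3 PM arrays (5.26, 6.71 and 5.47) lay above all 3 PBS arrays (5.0, 4.65 and 4.68), a difference of 1.04. In dnCREB left ventricle all 3 PM arrays (7.72, 7.65 and 7.72) lay below all 3 PBS arrays (7.73, 7.74 and 7.98), a difference of -0.12. Neither passed the test within its tissue (adjusted p = 0.54 and 0.98 by limma), and the difference between the tissues was not tested. Over all genes, 20.8% separated upward in dnCREB lung and 4.97% downward in dnCREB heart. The nearest heart values were 7.72 and 7.73, and all 12 hearts lay within 0.39. An opposite response in the 2 tissues was therefore not shown.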

How the results depend on the processing

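The number of members called for PM in wild-type lung (4) depended on most choices. It was 0 with no filter on low values (0.467% of all genes called, against 2.39%) and with the mean of skeletal muscle markers as a covariate (0.069%). It was also 0 without the lung arrays with Myh1 above 10 (0.0345%) and without both arrays that stood apart (0.371%). With only the groups compared it was 1 (0.207%). With quantile normalization (2.05%) or with arrays centred on their median (2.02%) it was 2. The count was 10 with all 24 arrays in 1 model (14.6%) and 16 with the class of Xist or Y-linked RNA as a covariate (17.9%). The fit that gave 16 separates PM from class in wild-type lung only through PM lung 2. Leaving out 1 array at a time gave 0 to 11 (0.328% and 0.431% of all genes at 0, 5.39% at 11). For dnCREB lung the count of 0 became 18 with array weights (15.3% of all genes). For dnCREB against wild-type heart under PBS the count of 5 became 2 with only the groups compared, 8 with all 24 arrays (20.7% of all genes, against 18.8%) and 0 with the class of Xist or Y-linked RNA (3.38%), and leaving out 1 array gave 2 to 9 (16.8% at 9). Under PM the count of 3 became 5 with only the groups compared (11.7% of all genes, against 20.5%), and leaving out 1 array gave 2 to 5. The causes of these changes in count were not tested. The other 4 comparisons had 0 called members under each alternative run.

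The replicate number as a block gave 4 called members in wild-type lung, 0 in dnCREB lung, 5 in heart under PBS and 4 under PM. Within each tissue, deviations of same-numbered arrays had correlations between -0.33 and 0.33 (lung) or -0.30 and 0.31 (heart). Those arrays belong to different groups and so to different mice. The correlations therefore cannot show whether lung and heart of the same number came from the same mouse, which was not tested. The main fit did not use the numbers.

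Some single values changed sign. The lung interaction of Ifit1 was 0.22 with array weights, and from -0.95 to 0.02 when 1 array was left out (0.02 without dnCREB PM lung 3), that of Ifi27l2a was 0.15 without the lung arrays with Myh1 above 10, and the PM difference of Xaf1 in dnCREB heart was 2.64 when all probe sets were tested. The 2 exclusions of arrays high in Myh1 or standing apart were chosen after seeing the data. Members near or under a log2 level of 4 are limited by background signal. Flat values at higher levels may be so limited too. In wild-type PM hearts the SD was 0.01 for Oas2 (mean 7.74) and 0.02 for Oasl2 (mean 6.15). Whether these are background levels was not tested, and if so the Oasl2 fold is a lower bound.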
